A study of Homo sapiens with 33 samples.

Results

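H/ACA box small nucleolar RNAs and small Cajal body RNAs were examined in HepG2, an established human hepatocellular carcinoma line. Members were chosen by name alone, as every gene identifier whose symbol begins with SNORA or SCARNA followed by a digit. The rule took 239 of 78932 identifiers, 214 of them SNORA and 25 SCARNA. They carried 176 symbols, because 12 symbols stood for several identifiers each and together covered 75 identifiers. RNA had been sequenced in 15 libraries. The study sorted cells by their place in the cell cycle into 6 fractions (G1, then S1 to S4 through S phase, then G2), each with 2 libraries (replicates 2 and 3), and used unsorted bulk cells for 3 more (replicates 1 to 3). All libraries came from HepG2 cells, and the labels name no treatment, no genotype and no culture for a replicate. P-values therefore reflect the spread among these libraries alone, and that spread may be technical. Per the labels the molecule was nuclear RNA in sorted and bulk libraries alike. A total RNA kit for ultra-low inputs was used after sorting and an mRNA kit for bulk RNA, both stranded, so sorting and kit cannot be told apart. The Repli-seq samples of the study were not analysed here.

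H/ACA RNAs fold into hairpins, each followed by a short single-stranded box, the H box (ANANNA) after the first and the ACA box near the 3′ end. A pocket in the hairpin pairs with a target RNA, and the bound enzyme dyskerin turns the uridine in the pocket into pseudouridine. SNORA members work in the nucleolus, mostly on ribosomal RNA, while SCARNA members collect in Cajal bodies and mostly guide modification of spliceosomal RNAs. Most human members lie in introns of other genes and are cut out of the spliced intron, so they carry no poly(A) tail. Some SCARNA members are C/D box RNAs, which guide 2′-O-methylation, or carry both kinds of box.

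Part of the H/ACA fold can be read in 7 members that hold an annotated miRNA hairpin, since mature snoRNA sequences themselves were not used here. These hairpins, from RefSeq (GRCh38.p14), are shown because the capitals mark an ACA lying exactly 3 bases before the 3′ end of the member, where the box is defined. SCARNA3 is the host with the highest level. Its hairpin MIR1843 lies on the minus strand at chr1:175968370-175968479, with 83 of its 110 bases inside SCARNA3. The hairpin MIR664A lies on the minus strand at chr1:220200538-220200619 in SNORA36B, and MIR6516 on the plus strand at chr17:77089417-77089497 in SCARNA16.
MIR1843 (SCARNA3): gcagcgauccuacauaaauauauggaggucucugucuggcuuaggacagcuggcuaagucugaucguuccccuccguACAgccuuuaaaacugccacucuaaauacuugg
MIR664A (SNORA36B): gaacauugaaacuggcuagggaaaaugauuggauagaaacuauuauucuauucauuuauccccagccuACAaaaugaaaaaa
MIR6516 (SCARNA16): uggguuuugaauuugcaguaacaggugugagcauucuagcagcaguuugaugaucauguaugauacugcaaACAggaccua

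The ACA at this place was found in 5 of the 7 hairpins. The hairpins inside SNORA2C and SNORA81 stop before the 3′ end of the member and do not cover the place. The letters ACA alone say little, since 63.0% of the 1562 human hairpins of the table hold ACA and 57.7% hold ANANNA on the hairpin's own strand, and a match is a description of the sequence only. The levels of the 7 hosts, in TPM (a gene's share of the transcripts in a library, corrected for gene length), were unlike. SCARNA3 averaged 148 TPM over the sorted libraries (lowest 119, median 148, highest 205) and SNORA2C 44.9 TPM (lowest 16.8, highest 68.0). SNORA36B and SNORA84 reached at most 1.34 and 1.07 TPM in any sorted library, and SNORA36A, SNORA81 and SCARNA16 were listed at 0 in all 15 libraries.

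The sorted libraries held 6132632 to 18497506 reads recovered from the values, with S4 replicate 3 the deepest and the other sorted libraries at or under 9312641, and the bulk libraries held 22341503 to 24424085. Hepatocyte markers summed to 3357 to 10013 TPM in the sorted and 33411 to 33681 TPM in the bulk libraries, with APOB near 0 in every library. Whether the APOB value reflects the RNA or the assignment of reads was not tested. Marker sums of fibroblasts, endothelium and leukocytes did not exceed 5.15, 3.19 and 3.35 TPM in any sorted library.

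Of the 239 members, 79 were above 0 in all 12 sorted libraries (65 SNORA and 14 SCARNA), 52 were above 0 in some sorted libraries, and 108 were listed at 0 in all 15 libraries (100 SNORA and 8 SCARNA). The members at 0 made up 45.2% of the class, against 17.9% of all identifiers and 55.7% of the 314 C/D box snoRNA identifiers (symbols beginning with SNORD and a digit). An exact 0 can be an RNA with no reads or a gene to which no reads were assigned, and which of these held was not tested. Among the 75 identifiers that share a symbol 43 were at 0, and among the 164 with a symbol of their own 65 were at 0. Symbols with many copies, such as SNORA70 and SNORA72, are uncertain, because reads may have been divided among near-identical copies.

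The zeros were unevenly spread over host genes. RefSeq gave a position for 164 members, and 150 of them lay inside a protein-coding or long noncoding gene. Inside SNHG genes, noncoding hosts of snoRNAs, 17 of 23 members were listed at 0. All 6 members inside TAF1D, which encodes a subunit of the RNA polymerase I factor SL1, were listed at 0, although TAF1D itself averaged 63.3 TPM in the sorted libraries. Inside ribosomal protein genes 10 of 15 members were at 0, inside other genes 28 of 106, and outside any such gene 4 of 14. In EIF4A2, which encodes a translation initiation helicase, SNORA63B, SNORA81 and SNORA4 were at 0 while the host averaged 111 TPM.

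Members inside the same host were in some cases far apart in level. Of 20 hosts with several members, 8 held members at 0 beside a member with a mean of at least 1 TPM, 8 held only members at 0, and 4 held none at 0. The widest contrast was the U17 pair in SNHG3 and RCC1. U17 is an H/ACA RNA needed for processing of 18S ribosomal RNA rather than for pseudouridylation. SNORA73B averaged 31987 TPM in the sorted libraries and SNORA73A was listed at 0 in all 15. The same held in TCP1 for SNORA20 (4295 TPM) and SNORA29 (0), and in RPL27A for SNORA3B (3732 TPM) and SNORA3A (0). In SNHG17, SNORA71B averaged 1007 TPM beside SNORA71A and SNORA71C at 0, and in TBRG4 SNORA5A and SNORA5C averaged 582 and 501 TPM beside SNORA5B at 0. These hosts were described after their values had been seen. The sources used here do not say how reads over a host and a member inside it were divided.

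**Figure D1:**
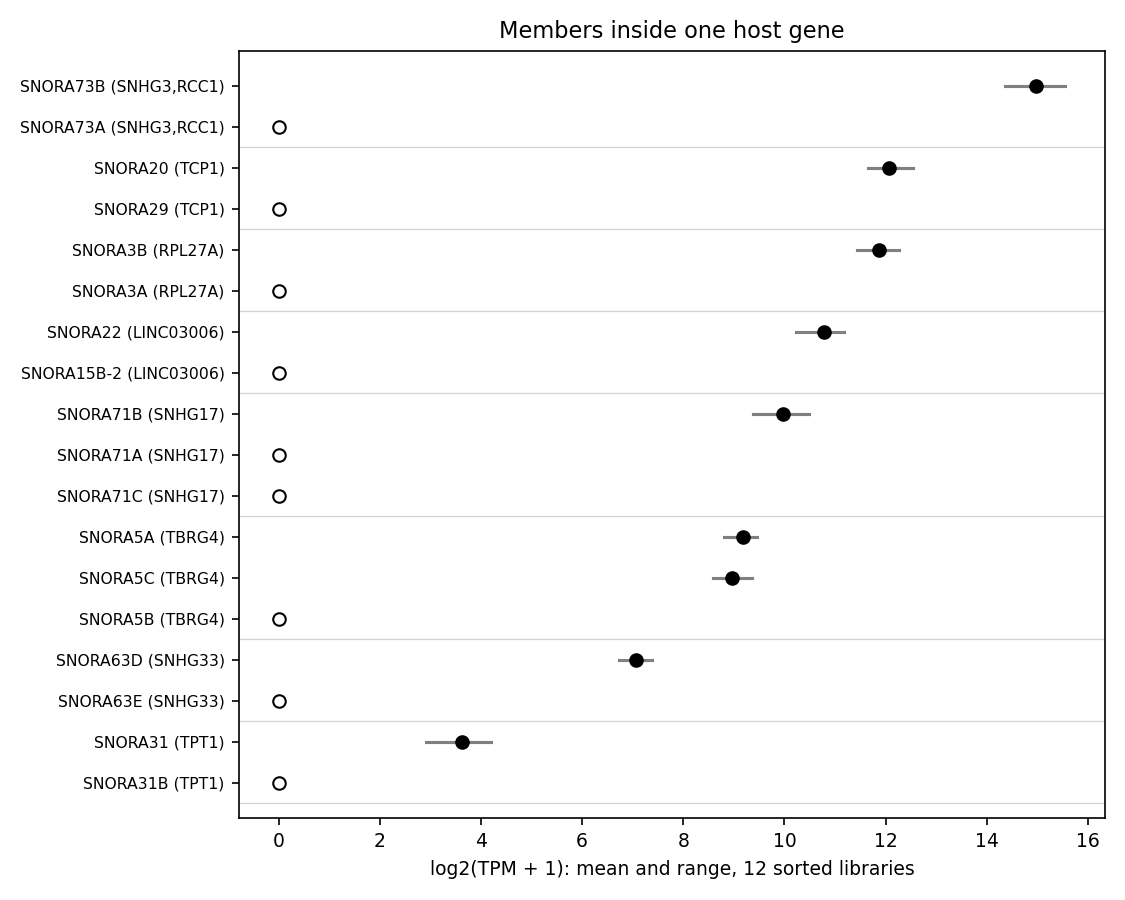
Members of the 8 host genes that hold a member at 0 in all 15 libraries beside one with a mean of at least 1 TPM. Points are means and grey lines ranges of log2(TPM + 1) over the 12 sorted libraries, open points are members listed at 0, and the host is in brackets: SNORA73B stands at the right end and SNORA73A at 0.

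SNORA members held nearly all of the class. Their TPM summed to 90809 ± 21026 over the sorted libraries (SD, n = 12), against 4140 ± 473 for SCARNA members, and the ratio of both sums ran from 16.96 to 26.5 by library. The whole class took 1.01% to 2.26% of the recovered reads of a sorted library, and 6.87% to 13.4% of its TPM, which weights short RNAs up. Among the members above 0 in all sorted libraries, the mean TPM of SNORA members had a median of 432 and quartiles of 79.0 and 944, and that of SCARNA members had a median of 172 and quartiles of 34.7 and 458. A mean of at least 1000 TPM was reached by 17 members, of which 16 were SNORA.

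SNORA73B (ENSG00000200087, chr1:28508558-28508762) led the class, with 20927 TPM in the lowest, 29776 in the median and 48187 in the highest sorted library. It ranked 4 among all 78932 identifiers by mean sorted TPM, stood 5.06 times above the next member, and made up 30.5% to 36.5% of the class's TPM in each sorted library. SNORA14B (ENSG00000207181), which lies inside TOMM20, the gene of a mitochondrial import receptor, followed with 4721, 6248 and 8822 TPM in the lowest, median and highest sorted library.
SNORA23 (ENSG00000201998) lies inside IPO7, a nuclear import receptor gene, and averaged 5057 ± 1259 TPM (SD, n = 12). SNORA33 (ENSG00000200534) lies inside the ribosomal protein gene RPS12 and averaged 4479 ± 1368 TPM. SNORA20 (ENSG00000207392) lies inside TCP1, a chaperonin subunit gene, and averaged 4295 ± 967 TPM. SNORA65 (ENSG00000201302) in RPL12 averaged 4023 ± 873 TPM, SNORA3B (ENSG00000212607) in RPL27A 3732 ± 786 TPM, and SNORA74A (ENSG00000200959) in MATR3 and SNHG4 3093 ± 900 TPM. The ranges of these 6 members overlapped, but within a library most of their order held. SNORA23 stood above SNORA20, SNORA65 above SNORA3B, and SNORA3B above SNORA74A in 12 of 12 sorted libraries, while SNORA33 stood above SNORA20 in 6 of 12. The 8 leading members together held 63.1% to 68.6% of the class's TPM.

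The leading SCARNA members were lower than the leading SNORA members. SCARNA8 (ENSG00000251733, chr9:19063656-19063786, inside HAUS6), a guide for the U2 spliceosomal RNA, led them with 1085 TPM in the lowest, 1275 in the median and 1469 in the highest sorted library. SCARNA7 (ENSG00000238741, inside KPNA4), a C/D box guide for U1, ranged from 458 to 989 TPM around a median of 658. SCARNA1 (ENSG00000252947, inside PPP1R8), a guide for U2, ranged from 491 to 836 TPM around a median of 601. SCARNA8 stood above the others in every sorted library, while the ranges of SCARNA7 and SCARNA1 overlapped. SCARNA21 (ENSG00000252835, inside CHD3) ranged from 412 to 658 TPM around a median of 533. SCARNA20 (ENSG00000252577, inside USP32) averaged 212 ± 51.4 TPM and SCARNA11 (ENSG00000251898, inside CHD4) 209 ± 39.7 TPM (SD, n = 12). The means of SCARNA20 and SCARNA11 lay within the SD of either, and their order within libraries was not counted.

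Box types of SCARNA members were taken from textbook knowledge, with 3 members not classed. Of 14 H/ACA identifiers 8 were above 0 in all sorted libraries and 5 at 0 in all 15. Of 4 C/D members SCARNA7 and SCARNA9 were above 0 in all sorted libraries, SCARNA9 at 25.9 TPM, and SCARNA2 and SCARNA17 were listed at 0. Of the 4 composite members, which carry both kinds of box, SCARNA10 averaged 12.2 TPM, SCARNA5 and SCARNA6 reached at most 0.895 and 0.492 TPM, and SCARNA12 was at 0.

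**Figure D2:**
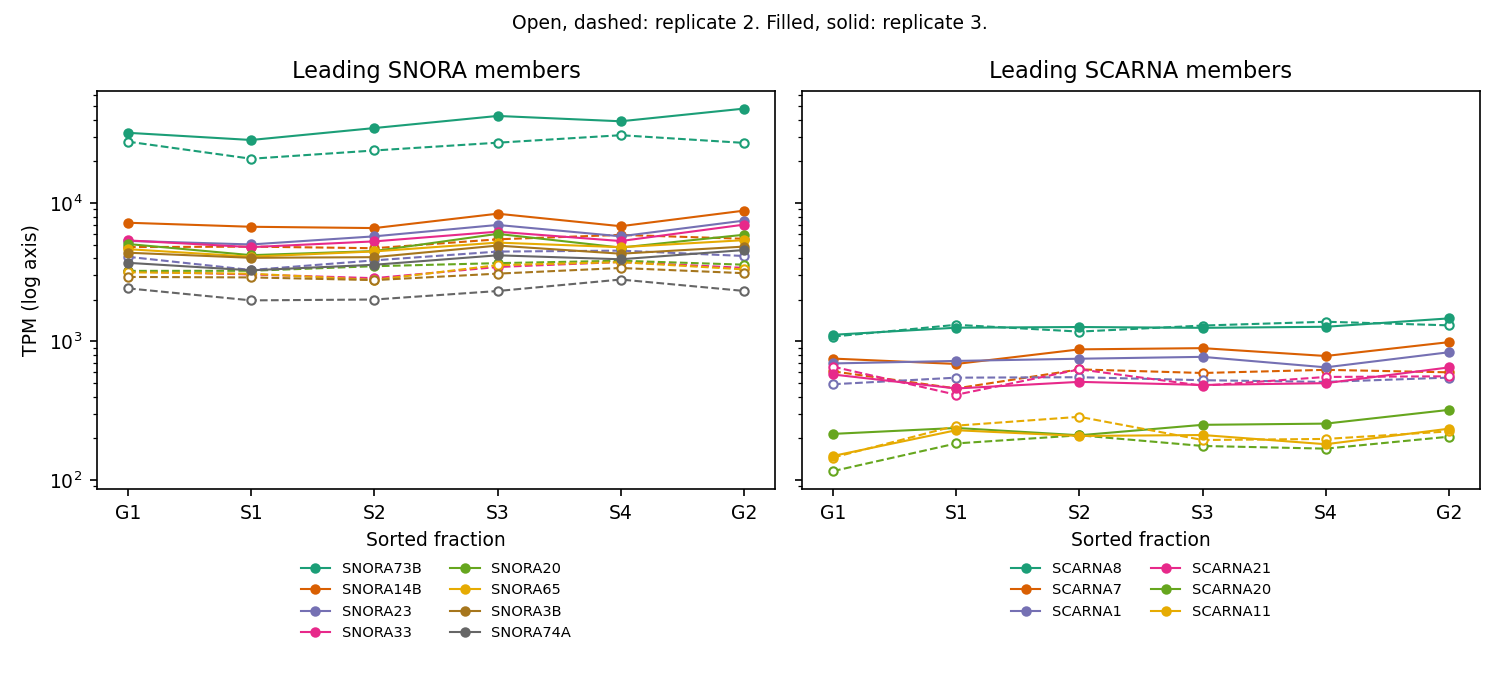
TPM (log axis) of the 8 leading SNORA members (left) and the 6 leading SCARNA members (right) in each sorted fraction. Open points with dashed lines are replicate 2 and filled points with solid lines replicate 3: SNORA73B lies apart from the other SNORA members in every library, and the lines of SCARNA8 from both replicates lie close together.

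Across the sorted fractions the summed level of each class moved within the spread between replicates. SNORA members summed to 86472 ± 19440 TPM in G1, 77209 ± 17243 in S1, 83424 ± 23133 in S2, 99263 ± 31839 in S3, 95740 ± 15723 in S4 and 102747 ± 37398 in G2 (SD, n = 2 each). S1 was lowest in both replicates, while the highest fraction was S4 in replicate 2 and G2 in replicate 3. SCARNA members summed to 3720 ± 374 TPM in G1, 3966 ± 391 in S1, 4242 ± 406 in S2, 4212 ± 536 in S3, 4104 ± 245 in S4 and 4594 ± 894 in G2. For SCARNA members G1 was lowest and G2 highest in both replicates. The ratio of SNORA to SCARNA sums, which does not depend on how a library is scaled, was lowest in S1 and S2 in both replicates, at 17.6 and 16.96 in replicate 2 and 21.1 and 22.0 in replicate 3, while G1 gave 21.0 and 25.1. Each library pools many cells, so less RNA per cell and fewer cells with the RNA cannot be told apart.

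**Figure D3:**
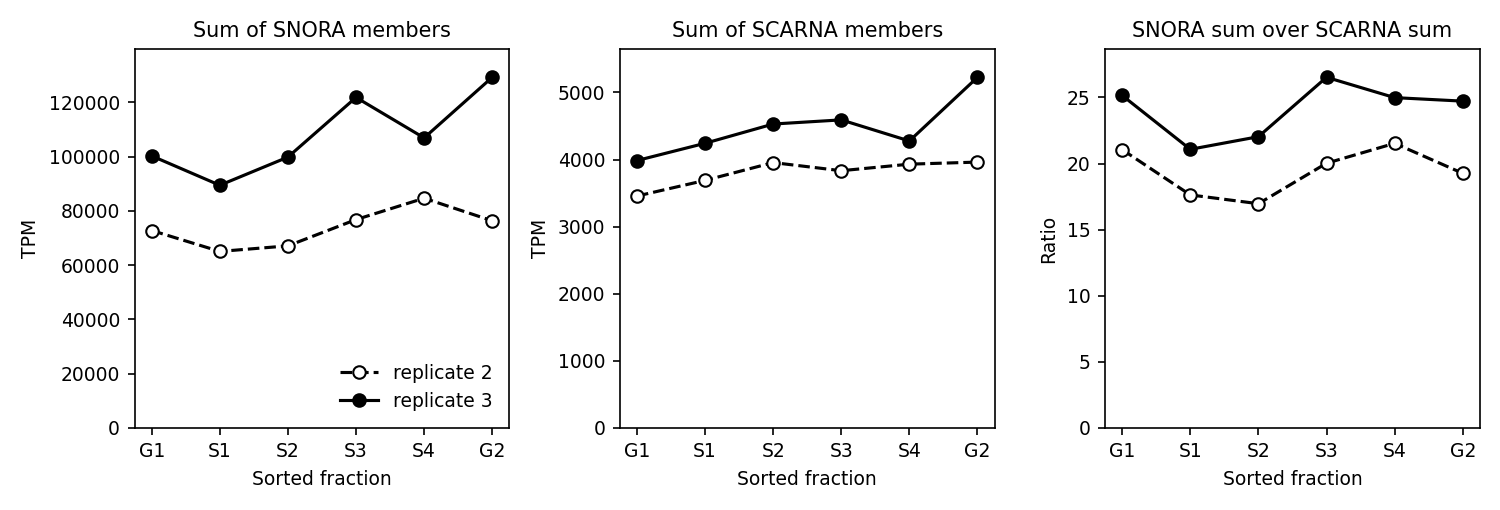
Summed TPM of SNORA members (left) and SCARNA members (middle) and the ratio of both sums (right) by sorted fraction. Open points with dashed lines are replicate 2 and filled points with solid lines replicate 3: replicate 3 lies above replicate 2 in every fraction, and the ratio dips in S1 and S2 in both.

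Replicate 3 exceeded replicate 2 in the class's summed TPM in all 6 fractions, by 1.26 to 1.67 times. Of the 79 members above 0 in all sorted libraries, 57 were higher in replicate 3 in every fraction (50 of 65 SNORA and 7 of 14 SCARNA), and the median shift was 0.53 on the log2(TPM + 1) scale. The shift over all genes was not computed, so whether the members differ from other genes in it is not known. With the values rescaled to the protein-coding genes of each library, 39 of the 79 were higher in every fraction and the median shift was 0.52. SNORA33 and SNORA74A shifted by a median of 0.80 and 0.78, whereas SCARNA8, SCARNA11 and SCARNA21 shifted by -0.01, -0.04 and -0.07 and were higher in replicate 3 in only 3 of 6 fractions. Mitochondrial transcripts moved the other way, with 8.66% to 16.7% of TPM in replicate 2 and 2.22% to 9.97% in replicate 3. Their part in the shift was not tested. The tests that follow have no replicate term, so the shift stays in their spread.

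No member passed the test for a difference among the fractions. Differences were fitted with limma on log2(TPM + 1) in all genes with a mean of at least 1 TPM, with Benjamini-Hochberg adjustment over 17022 genes at 0.05, and 92 of the 239 members entered (78 SNORA and 14 SCARNA). For any difference among the 6 fractions limma called 0 members, against 0.0176% of all genes. An unadjusted p under 0.05 was held by 2 of the 92 members and 470 of the 17022 genes. For S (the mean of S1 to S4) against G1 limma called 0 members and 0% of all genes. There 3 members and 891 of all genes had an unadjusted p under 0.05. For G2 against G1, which shares the G1 libraries with that comparison, limma called 0 members, against 0.00587% of all genes. Here 2 members and 469 of all genes had an unadjusted p under 0.05. For the slope from S1 to S4 limma called 0 members and 0% of all genes. An unadjusted p under 0.05 was held by 1 member and 500 of all genes. Read counts recovered from the values and fitted with limma's voom, likewise without a replicate term, also gave 0 members in each of these comparisons. With so few calls among all genes, the count of 0 does not set the members apart.

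SCARNA members lay higher against G1 than SNORA members, which is a description with no test between the classes. In S against G1 the log2 difference had a median of 0.02 over SNORA members (44 of 78 above 0) and 0.25 over SCARNA members (12 of 14 above 0), beside -0.20 over all genes tested. In G2 against G1 the medians were 0.15 (62 of 78 above 0), 0.43 (13 of 14 above 0) and -0.08. In the slope from S1 to S4 they were 0.10 per step (68 of 78 above 0), 0.01 (7 of 14 above 0) and 0.04. Scaling moved the all-gene median of S against G1 to -0.03 with median-ratio factors, with SNORA at 0.23 and SCARNA at 0.45. Leaving out single libraries moved the S against G1 median of SNORA members between -0.28 (without G1 replicate 2) and 0.35 (without G1 replicate 3), and that of SCARNA members between 0.04 and 0.61, both ends set by the same libraries. Leaving out replicate 3 of S1, S2, S3 or S4 also turned the SNORA median slightly below 0, to between -0.07 and -0.02. The G2 against G1 median of SNORA members ran from -0.15 (without G1 replicate 2) and -0.14 (without G2 replicate 3) to 0.50 (without G1 replicate 3), and that of SCARNA members from 0.22 to 0.69. The slope median ran from 0.04 to 0.16 for SNORA members and from -0.04 to 0.04 for SCARNA members.

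**Figure D4:**
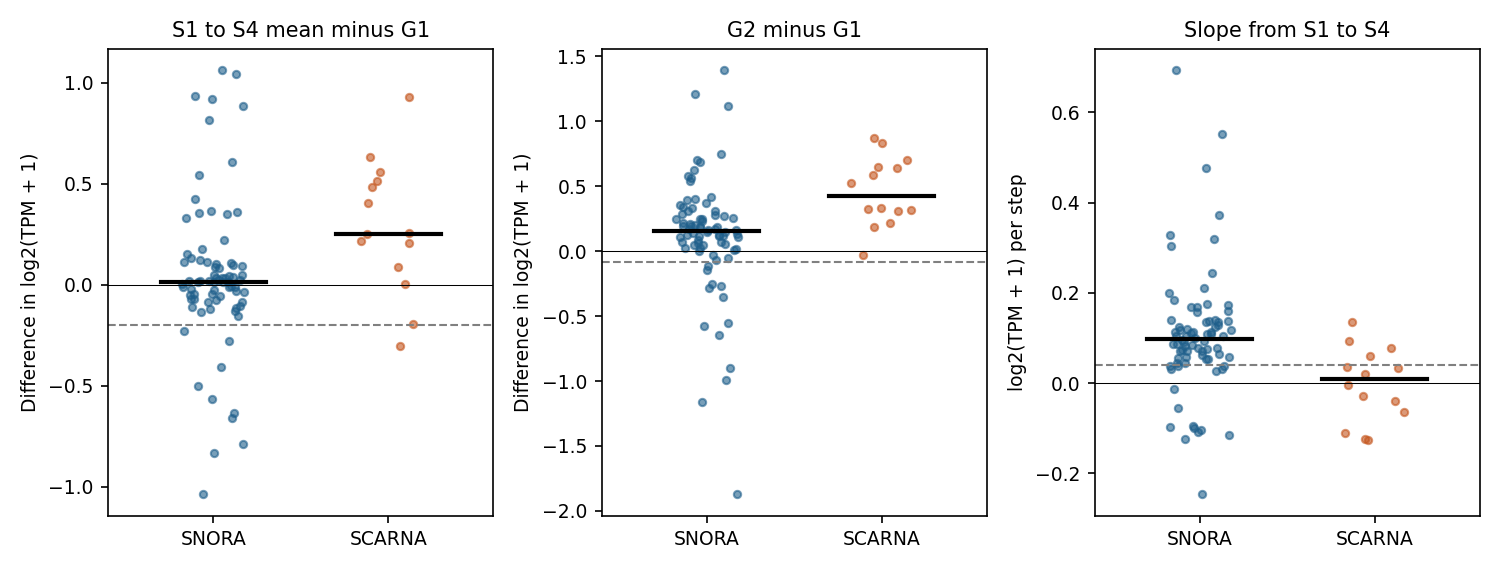
Log2(TPM + 1) differences of the 78 SNORA and 14 SCARNA members tested, for the mean of S1 to S4 minus G1 (left), G2 minus G1 (middle) and the slope from S1 to S4 per step (right). Each point is a member, black bars are class medians and the dashed grey line is the median of all 17022 genes tested: the SCARNA median lies above the SNORA median in the left and middle panels and below it in the right.

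Several SCARNA members had their lowest values in G1. SCARNA11, which guides pseudouridylation of U5, stood at 145 and 149 TPM in G1 replicates 2 and 3, 247 and 229 in S1, 286 and 208 in S2, 194 and 211 in S3, 198 and 181 in S4, and 224 and 234 in G2. Both G1 libraries lay below the other 10 sorted libraries, and the log2 difference of S against G1 was 0.56 ± 0.21 (SE, limma adjusted p = 0.816). SCARNA23 (ENSG00000251869, inside POLA1), a guide for U6, stood at 53.1 and 60.8 TPM in G1, 69.0 and 128 in S1, 98.2 and 117 in S2, 116 and 156 in S3, 101 and 109 in S4, and 62.9 and 107 in G2. Its S libraries lay above both G1 libraries, and the log2 difference of S against G1 was 0.93 ± 0.29 (SE, limma adjusted p = 0.816). SCARNA18 (ENSG00000238835) stood at 111 and 148 TPM in G1 and at 145 to 247 TPM in the S libraries, which overlapped, with a log2 difference of 0.63 ± 0.29 (SE, limma adjusted p = 0.816). Of the 14 SCARNA members above 0 in all sorted libraries, G1 was the lowest fraction for 9 in replicate 2 and 7 in replicate 3, and for 6 in both. Among the 65 SNORA members, G1 was lowest for 16 and 5, and for 3 in both, and S1 was lowest for 12 and 38, and for 11 in both. The highest fraction of SNORA members was S4 for 40 in replicate 2 but for 3 in replicate 3, and only 9 of 65 had the same highest fraction in both replicates.

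SNORA73B showed little of a difference between G1 and later fractions against its spread. It stood at 27807 and 32222 TPM in G1 replicates 2 and 3, 20927 and 28592 in S1, 24012 and 34871 in S2, 27328 and 42657 in S3, 30959 and 39037 in S4, and 27247 and 48187 in G2. S1 was its lowest fraction in both replicates. The log2 difference was 0.02 ± 0.36 for S against G1 and 0.28 ± 0.46 for G2 against G1, and the slope was 0.18 ± 0.15 per step (SE). SCARNA8 stood at 1085 and 1118 TPM in G1 against 1179 to 1389 in the S libraries and 1308 and 1469 in G2, so G1 lay below every later library. Its log2 difference was 0.22 ± 0.22 for S against G1 and 0.33 ± 0.27 for G2 against G1.

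SNORA9B (ENSG00000206897, inside DDX55) had the smallest p for any difference among the fractions of the members with a mean of at least 5 TPM (unadjusted p = 0.0227, limma adjusted p = 1.00). It stood at 44.3 and 47.3 TPM in G1, 5.95 and 21.1 in S1, 28.4 and 46.1 in S2, 28.0 and 48.6 in S3, 42.8 and 43.6 in S4, and 43.8 and 51.5 in G2. S1 was lowest in both replicates, and the slope from S1 to S4 was 0.55 ± 0.16 per step (SE, limma adjusted p = 1.00). The lowest of these values rests on 6 reads. Its log2 difference of S against G1 was -0.66 ± 0.39. Next by p above that mean came SCARNA23 and SCARNA11 (unadjusted p = 0.0989 and 0.143).

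Among members with a mean of at least 5 TPM, the other most extreme values came mostly from low members, and none of them passed the test. Some members below that mean reached further, in the falls of S against G1 and in both directions of G2 against G1, and are not named. In S against G1 the log2 difference was 1.06 ± 0.54 for SNORA3C, 0.82 ± 0.52 for SNORA73 (ENSG00000199977), -0.41 ± 0.53 for SNORA22B and -0.30 ± 0.21 for SCARNA21 (SE). SNORA3C held between 1 and 10 reads in each sorted library. In G2 against G1 it was 1.21 ± 0.65 for SNORA73, 1.12 ± 0.69 for SNORA3C and 0.87 ± 0.37 for SCARNA21B, and -1.16 ± 0.81 for SNORA72 (ENSG00000201944), -0.90 ± 0.73 for SNORA70I and -0.28 ± 1.34 for SNORA70F. SNORA70F was listed at 0 in 3 sorted libraries, including G1 replicate 2, while it reached 19.2 TPM in G1 replicate 3. The slope from S1 to S4 per step was 0.69 ± 0.42 for SNORA70F and 0.33 ± 0.23 for SNORA70I, and -0.25 ± 0.27 for SNORA38, -0.13 ± 0.15 for SCARNA10 and -0.12 ± 0.08 for SCARNA11.

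In the bulk libraries, made from mRNA, members were rare. The class summed to 282 ± 61.4 TPM (SD, n = 3) against 94949 ± 21444 TPM (SD, n = 12) after sorting. It came to 185 to 304 reads per bulk library. SNORA members summed to 272 TPM and SCARNA members to 9.50 TPM in bulk. Of the 239 members, 57 were above 0 in at least 1 bulk library and 21, all SNORA, in all 3. SNORA33 led in bulk with 62.0, 54.1 and 56.4 TPM in replicates 1 to 3, followed by SNORA73B with 54.8, 59.3 and 37.7 TPM. SNORA71B stood at 16.3, 15.9 and 14.5 TPM and SNORA66, inside RPL5, at 18.6, 20.4 and 5.38 TPM. SNORA73B was thus not the leader in bulk, where its range overlapped that of SNORA33. SCARNA8 was read at 7.53, 4.13 and 0 TPM, SCARNA18 at 6.14 TPM in replicate 1 alone, and SCARNA21 at 3.89 TPM in replicate 2 alone.

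Of the 91 members tested in the fit of all 15 libraries, limma called 88 higher in the sorted libraries and none lower, while of 17174 genes 80.9% were called, 23.1% higher and 57.8% lower (adjusted p under 0.05). Members that passed the filter on low values through the sorted libraries alone had to differ. Of the 32 members with a bulk mean of at least 1 TPM, 29 had their lowest sorted library above their highest bulk library. The same count was not made over all genes, so how unusual it is cannot be said. The 3 members not called were SNORA70F, SNORA70D and an identifier of SNORA70 (ENSG00000200237), each at 0 in some sorted library. The median log2 difference was 6.39 over SNORA members and 6.92 over SCARNA members, beside -0.99 over all genes. Rescaling to the protein-coding genes moved all 3 medians up together, to 9.25, 9.85 and 1.30, and turned the split of all genes to 10798 called higher and 2297 lower. The 88 members were called higher on that scale too.

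The largest differences were those of SNORA23 (11.94 ± 0.29), SNORA20 (11.24 ± 0.30), SNORA49 (10.35 ± 0.26), SNORA80E (10.31 ± 0.36) and SNORA68B (9.99 ± 0.29), as log2 differences with their SE. Few bulk reads stood behind them. SNORA23 had 1 bulk read, and its TPM was 15445 times the bulk mean with a 95% Poisson interval of 2839 to 624689 from that read. SNORA68B had none, so it was at least 808-fold higher, against a floor of 3 reads over the 3 bulk libraries. Members with more bulk reads gave firmer ratios, and these intervals cover counting error only. SNORA73B was 632 times higher (544 to 734), SNORA14B 988 times (593 to 1747), and SNORA33 77.9 times (65.3 to 92.9). SCARNA8 was 326 times higher (167 to 694), on 9 bulk reads. The intervals of SNORA33 and SNORA73B did not meet.

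**Figure D5:**
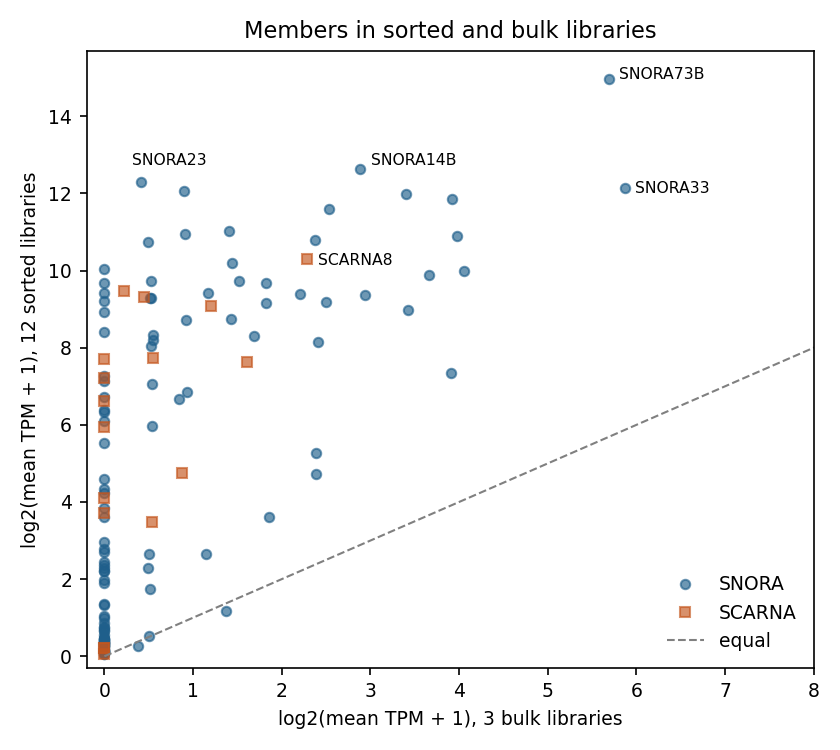
Mean level of each member above 0 in any library, as log2(mean TPM + 1), in the 3 bulk libraries (x axis) and the 12 sorted libraries (y axis). Circles are SNORA and squares SCARNA members, and the dashed line marks equal values: most members lie far above it, and SNORA33 lies nearer to it than SNORA73B.

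Transcripts of most leading hosts had lower TPM in the sorted libraries, but for several hosts this direction depends on the scaling. RPS12, host of SNORA33, averaged 174 TPM in the sorted and 7635 TPM in the bulk libraries. TOMM20, host of SNORA14B, averaged 19.9 and 604 TPM, IPO7, host of SNORA23, 19.0 and 273 TPM, and TCP1, host of SNORA20, 34.2 and 357 TPM. After rescaling to protein-coding genes these 4 remained lower in the sorted libraries, at 0.138 (RPS12), 0.199 (TOMM20), 0.420 (IPO7) and 0.579 (TCP1) times the bulk mean. On that scale the median log2 difference over all genes tested was 1.30, and 10798 of 17174 were called higher. A ratio above 1 therefore does not by itself set a host apart. Noncoding SNHG3, around SNORA73B, averaged 89.8 and 91.9 TPM, and RCC1, which overlaps it, 20.3 and 233 TPM. On the rescaled values SNHG3 stood 5.85 times above bulk and RCC1 at 0.524 times. HAUS6, host of SCARNA8, averaged 9.41 and 33.2 TPM, and turned to 1.71 times the bulk mean after rescaling. MATR3 (ENSG00000015479), around SNORA74A, was higher in the sorted libraries on both scales, at 4.43 and 0.614 TPM and 43.7 times after rescaling. The ratio rests on low bulk values of that identifier, from 0.445 to 0.709 TPM. A further MATR3 identifier (ENSG00000280987) was near 0, at 0.143 and 0.129 TPM. Whether reads were divided between these identifiers was not tested. SNHG4, also around SNORA74A, averaged 30.1 and 83.3 TPM, and turned to 2.15 times after rescaling. Hosts did not always rank like their members, although ranks over all hosts were not compared. In the sorted libraries RPS12 stood above TOMM20, while SNORA33 stood below SNORA14B.

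A list of 23 genes held the core proteins of the H/ACA particle, assembly factors, Cajal body proteins, factors of small RNA maturation and cap binding, and telomerase with its RNA, and 20 of them passed the filter. The limma fit on log2(TPM + 1) called none of the 20 among the sorted fractions. Against bulk all 20 were called, 18 lower and 2 higher in the sorted libraries (PARN and TERT). Of all genes 80.9% were called in this comparison, 57.8% lower and 23.1% higher. PARN stood at 0, 0.102 and 1.42 TPM in bulk replicates 1 to 3, the last inside its sorted range of 0.825 to 2.12 TPM. The directions of the 20 genes depend on the scaling. By sign alone 16 of the 20 lay lower and 4 higher with median-ratio factors. With voom on the recovered reads 10 lay lower and 10 higher. After rescaling to protein-coding genes 4 lay lower and 16 higher. Of the 4 lower after rescaling, only NHP2 and NOLC1 were called lower (limma adjusted p = 1.9e-07 and 0.00018). Of all 17174 genes, 10798 were called higher and 2297 lower on that scale, with a median log2 difference of 1.30. DKC1, which encodes dyskerin, averaged 10.7 TPM in the sorted and 66.1 TPM in the bulk libraries, a log2 difference of -2.54 ± 0.14 (SE) that came to -0.05 after rescaling. NHP2, a core protein, averaged 10.9 and 157 TPM (-3.75 ± 0.11, and -1.26 after rescaling), and GAR1, also a core protein, 6.70 and 49.3 TPM (-2.78 ± 0.29, and -0.37). The assembly factors NAF1 and SHQ1 gave -1.35 and -1.67, and came to 1.01 and 0.63 after rescaling. On that scale NAF1 was called and SHQ1 was not (limma adjusted p = 0.0010 and 0.070). The Cajal body proteins WRAP53, which binds scaRNAs, and COIL, the coilin gene, gave -1.74 and -2.02. After rescaling they came to 0.48 and 0.47, and neither was called (limma adjusted p = 0.166 and 0.0987). NOP10, the last core protein, was near 0, at 0.639 TPM in the sorted and 2.02 TPM in the bulk libraries. Its bulk values ran from 0.454 to 4.24 TPM. Whether so low a value reflects the RNA or the assignment of reads was not tested.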

How the data were processed

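RNA was measured in 15 libraries. Tools named in the submitters' processing notes, with no role or version, were HISAT2, BWA, SAMtools, cutadapt and Trimmomatic, and the build was hg38. The program and annotation that gave the values were not given in the sources used here. In each file the authors deposited 1 log2 value per gene identifier, and 2 to that power minus 1 sums to 1000000 in each library, so the values were read as log2(TPM + 1). The design had been written for TPM, and its tests were kept. Symbols were looked up in a table of gene names, and positions in a RefSeq table of the same build. No promoter sequence of a member was used.

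Within a library, TPM move in steps of 1 read over the gene's length, and from these steps whole counts and lengths were recovered for 50309 of the 50310 genes seen in 3 or more libraries. A unit may be a read or a read pair, which the sources do not say. Of 99 members with a length from the values and from RefSeq, 93 agreed within 3 bases.

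Tests used limma 3.58.1 in R 4.3.3 with an intensity trend, a pseudocount of 1, a minimum mean of 1 TPM, and an adjusted p (Benjamini-Hochberg) under 0.05. Sorted libraries were fitted together without a replicate term. A second fit of all 15 libraries compared bulk with the mean over the 6 fractions. Log2 differences on this scale understate the change of low genes. The scripts were tested on simulated data. Alternatives changed the pseudocount, filter, scaling, trend, replicate term and libraries, and used limma's voom on the recovered reads. Summaries used Python 3.11.15 with pandas 2.3.3.

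Members and lists were chosen with earlier results of these data known. Named were the 8 SNORA and 6 SCARNA members with the highest sorted means, the 4 and 3 with the highest bulk means, and in each comparison up to 5 called members per direction or, with none called, the 3 most extreme with a mean TPM of at least 5. Particle proteins, the U17 pair and hosts of leading members were also named. Others, such as SCARNA18 in S against G1, hosts with members at 0 and the hairpin hosts, were chosen after their values were seen. Identical symbols are told apart by identifier.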

Additional observations from a re-analysis of the deposited data

How the results depend on the processing

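The counts of members called kept their verdict in 103 of 106 refits. The 3 that moved came from recovered read counts with voom and a block for the replicate number, which called 1 member for any difference among the fractions (SNORA73B), 3 for S against G1 (SCARNA11, SCARNA18 and SCARNA23, all higher in S) and 2 for the slope from S1 to S4 (SNORA73B and SNORA12, both rising), while 691, 460 and 913 of all genes were called. Of the particle genes this fit called TCOF1 and RUVBL2 for any difference and DKC1, RUVBL1, RUVBL2 and TCOF1, all rising, for the slope. The replicate block alone, on log2(TPM + 1), called 0 members in each comparison among the fractions, with 10 to 12 at an unadjusted p under 0.05. Of all 17022 genes, 885 to 2132 had such a p. No shared culture or day is named for a number, so the pairing of same-numbered libraries is not known and the values without the block were kept.

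Leaving out each library in turn left 0 members called among the fractions and 84 to 89 against bulk, and 75 to 90 were called against bulk under the other settings. Of 170 refits of class medians 18 moved, and of 1868 refits of named members 23 moved and 4 passed the test, all 4 with voom and the block. With 2 libraries a fraction, small differences are beyond the reach of these tests, and bulk values of SCARNA members rest on 1 to 13 reads per library.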
